A study of Mus musculus with 12 samples.

Results

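The 10 genes described here encode secreted or membrane-bound signals that recruit or sustain leukocytes. They are the chemokines Ccl2, Ccl5, Ccl7, Cxcl1, Cxcl9, Cxcl10, Cxcl16 and Cx3cl1, and the colony-stimulating factors Csf1 and Csf2. They were taken by symbol from a table of 54752 mouse genes, and each of the 10 symbols matched 1 Ensembl gene. RNA came from B16F10, an established mouse melanoma line, and libraries were made with a stranded mRNA kit. The 12 libraries form 4 groups of 3 by genotype: control cells (genotype WT), cells labelled Ep300 knockout, cells labelled Crebbp knockout, and cells labelled as knockout of both genes, called double knockout below. No treatment, time or drug is given, and all groups share the line and the DMEM culture with serum. The labels do not say how the genes were disrupted, whether a knockout is 1 clone or a pool, or whether replicate libraries came from separate cultures, so the p-values measure only the spread between these libraries, which may be technical.

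Chemokines are small proteins that bind G protein-coupled receptors on leukocytes and direct their migration, and they are named by the spacing of their first cysteines (CC, CXC, CX3C). In melanoma, tumour cells themselves can make them, and interferon and NF-kappaB signalling are the best known inducers. The products of Ep300 and Crebbp, p300 and CBP, are related acetyltransferases that serve as coactivators for many transcription factors, among them STAT, IRF, NF-kappaB and CREB proteins.

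Libraries held between 64257251 and 85604243 counts. The transcript of Crebbp was lower in the libraries labelled Crebbp knockout (log2 fold change -0.91 ± 0.12, SE; edgeR adjusted p = 0.000527) but not in those labelled double knockout (-0.02 ± 0.11, adjusted p = 0.922). That of Ep300 was not lower in the libraries labelled Ep300 knockout (-0.15 ± 0.10, adjusted p = 0.376) and was higher in double knockout (0.65 ± 0.10, adjusted p = 7.33e-05). A gene-level count does not show which exons are present and so does not measure the loss of a protein; grouping follows the labels throughout. In bulk RNA, fewer cells that express a gene and less RNA per cell cannot be told apart.

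Among the members, Cxcl10 and Csf1 are shown with the bases before their transcription start because they were the most abundant of those that rose in double knockout and have an entry among the RefSeq promoter windows of GRCm38.p6. Cxcl1 and Cxcl9 lie on the same chromosome as Cxcl10 and are shown for contrast. Cxcl1 stayed under 1 CPM in every group, and Cxcl9 was at or under the count floor. This choice was made after their values were seen. The windows are the 250 bases before the start, read 5′ to 3′ on the strand of the gene: chr5:92348890-92349139 (minus strand) for Cxcl10, chr3:107760470-107760719 (minus strand) for Csf1, chr5:90890995-90891244 (plus strand) for Cxcl1 and chr5:92328080-92328329 (minus strand) for Cxcl9. Capitals mark each match, on either strand, to GAAA, any 2 bases and GAAA again (an interferon response core), GGG, any 3 bases and TTCC (kappaB), TGANTCA (AP-1) or TGACGTCA (CRE).
Cxcl10: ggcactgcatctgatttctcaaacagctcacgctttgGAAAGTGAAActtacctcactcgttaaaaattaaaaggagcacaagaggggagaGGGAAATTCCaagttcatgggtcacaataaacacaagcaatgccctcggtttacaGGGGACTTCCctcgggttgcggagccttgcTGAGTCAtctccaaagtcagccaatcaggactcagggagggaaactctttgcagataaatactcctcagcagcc
Csf1: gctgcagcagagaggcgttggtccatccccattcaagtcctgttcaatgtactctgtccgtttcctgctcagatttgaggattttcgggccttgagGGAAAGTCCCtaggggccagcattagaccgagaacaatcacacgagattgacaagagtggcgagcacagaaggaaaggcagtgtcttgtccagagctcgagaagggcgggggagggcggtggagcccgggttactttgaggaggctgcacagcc
Cxcl1: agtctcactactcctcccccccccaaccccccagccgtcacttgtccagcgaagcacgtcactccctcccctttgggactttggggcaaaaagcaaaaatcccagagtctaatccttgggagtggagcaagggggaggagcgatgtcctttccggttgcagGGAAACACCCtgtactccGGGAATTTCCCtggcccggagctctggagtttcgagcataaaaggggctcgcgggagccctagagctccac
Cxcl9: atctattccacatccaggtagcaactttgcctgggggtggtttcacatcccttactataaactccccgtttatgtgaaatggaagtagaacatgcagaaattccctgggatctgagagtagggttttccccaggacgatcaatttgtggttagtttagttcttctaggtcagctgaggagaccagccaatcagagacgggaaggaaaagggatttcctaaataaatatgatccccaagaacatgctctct

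The Cxcl10 window held 4 matches: 1 interferon response core, GAAAGTGAAA, from 213 to 204 bases before the start, 2 kappaB matches, GGGAAATTCC and GGGGACTTCC, from 159 to 150 and from 104 to 95 bases before it, and 1 AP-1 match from 74 to 68 bases before it. Csf1 had 1 kappaB match. Cxcl1 had 3 kappaB matches, of which GGGAATTTCC and its partner on the other strand overlap. Cxcl9 had 0 matches to these letters in this window. The windows of Cx3cl1, which rose in double knockout, and of Csf2 are not shown and also had 0 matches. Among 32851 windows of the same length for 27025 genes, 2.98% held the interferon response core, 4.65% the kappaB letters, 6.75% the AP-1 letters and 1.55% the CRE. A match is a description of the letters and not a binding site. Of the 10 members, 6 matched a window; the others are Ccl2, Ccl5, Ccl7 and Cxcl16.

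Of the 10 members, 6 passed the filter on low counts and 4 did not. Cxcl10, Ccl5, Csf1 and Cx3cl1 reached at least 1 CPM in some group (CPM are read counts scaled to library size by TMM). Cx3cl1 did so only in double knockout (group mean 2.15 CPM). Its other group means were 0.4445 in control, 0.4228 in Crebbp knockout and 0.9035 in Ep300 knockout, and in control it was below Cxcl1 (0.5502). Cxcl1 and Cxcl16 passed the filter but stayed under 1 CPM, and Csf2, Cxcl9, Ccl2 and Ccl7 held 0 to 4 counts per library. By edgeR's quasi-likelihood test with Benjamini-Hochberg adjustment over all 18434 tested genes, 4 members passed in Ep300 knockout against control (3 higher, 1 lower), where 16.1% of all tested genes passed (7.27% higher and 8.83% lower). In Crebbp knockout 1 member passed, Cxcl10, against 3.13% of all genes (1.52% higher and 1.61% lower), a background count that ran from 214 to 1279 genes over the alternative analyses. In double knockout 6 passed, 4 higher and 2 lower, against 49.4% of all genes (24.7% higher and 24.6% lower). The 2 lower members, Cxcl1 and Cxcl16, were under 1 CPM in every group and are described below without a call. That rule uses the highest group, so a member low in control can reach 1 CPM by rising and not by falling. Cx3cl1 reached it in this way, in double knockout alone. Between knockouts, 4 members passed in Ep300 against Crebbp knockout (3 higher and 1 lower), where 13.6% of all genes passed, 6.26% higher and 7.37% lower. The 4 members Cxcl10, Ccl5, Csf1 and Cx3cl1 were higher in double than in Ep300 knockout (background 34.6%, with 18.0% higher and 16.6% lower), and the same 4 were higher in double than in Crebbp knockout (43.2%, with 21.4% higher and 21.8% lower). Over all tested genes the median log2 fold change lay close to 0 in each comparison (0.01 for Ep300 knockout, -0.01 for Crebbp and -0.02 for double knockout).

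**Figure D1:**
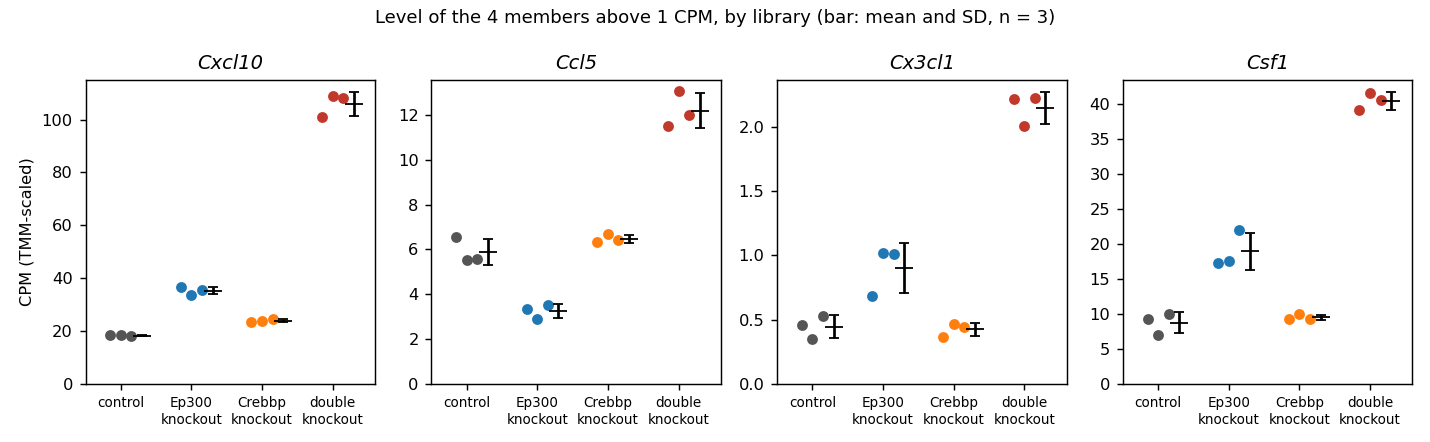
CPM (y axis, linear and starting at 0) of Cxcl10, Ccl5, Cx3cl1 and Csf1 in each of the 12 libraries, grouped by genotype on the x axis; black bars give the mean and SD of 3 libraries. Double knockout is the highest group for each of the 4 genes, and Ccl5 alone among them is lower in Ep300 knockout than in control.

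Cxcl10, the interferon-inducible ligand of Cxcr3 that attracts activated T cells and NK cells, was the most abundant member and rose in every knockout group. The gene (ENSMUSG00000034855) lies on mm10 chromosome 5, 92346638 to 92348889, minus strand. Control libraries stood at 18.3, 18.3 and 17.9 CPM, Crebbp knockout at 23.5, 23.7 and 24.6, Ep300 knockout at 36.6, 33.7 and 35.4, and double knockout at 101, 109 and 108. The 4 groups did not overlap in any pair. Against control, the log2 fold change was 0.40 ± 0.06 in Crebbp knockout (1.32-fold, adjusted p = 0.00236), 0.95 ± 0.06 in Ep300 knockout (1.94-fold, adjusted p = 1.83e-08) and 2.54 ± 0.06 in double knockout (5.83-fold, adjusted p = 1.08e-13). Neighbours in this order differed as well: Ep300 knockout was above Crebbp knockout by 0.56 ± 0.06 (adjusted p = 9.41e-06), and double knockout above Ep300 knockout by 1.59 ± 0.06 (adjusted p = 1.41e-10). Exons of Art3, on the opposite strand, share 133 bases with those of Cxcl10, or 5.9% of its exon length. Art3 stood at group means of 0.779 to 1.05 CPM and did not pass in any comparison (adjusted p from 0.205 to 0.99).

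Csf1 encodes the macrophage colony-stimulating factor, the ligand of Csf1r on which monocytes and macrophages depend. It rose where Ep300 was the labelled loss and rose further in double knockout. The gene (ENSMUSG00000014599) lies on chromosome 3, 107741048 to 107760469, minus strand. Control libraries stood at 9.23, 7.01 and 9.97 CPM, Crebbp knockout at 9.30, 9.91 and 9.24, Ep300 knockout at 17.3, 17.6 and 22.0, and double knockout at 39.2, 41.7 and 40.7. Crebbp knockout lay within the range of control, and both other groups lay above it without overlap. The log2 fold change was 1.11 ± 0.12 in Ep300 knockout (2.16-fold, adjusted p = 4.95e-06), 0.11 ± 0.12 in Crebbp knockout (adjusted p = 0.66) and 2.21 ± 0.12 in double knockout (4.62-fold, adjusted p = 6.69e-10). Double knockout exceeded Ep300 knockout by 1.09 ± 0.11 (adjusted p = 4.02e-06).

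Cx3cl1 encodes fractalkine, a chemokine tethered to the membrane that binds Cx3cr1 and is released by cleavage. As with Csf1, Ep300 knockout was above control and double knockout above both, at a far lower level per kilobase of exon. The gene (ENSMUSG00000031778) lies on chromosome 8, 94772009 to 94782427, plus strand. Raw counts were 36, 20 and 39 in control, 27, 31 and 29 in Crebbp knockout, 49, 84 and 85 in Ep300 knockout, and 204, 170 and 208 in double knockout. In CPM, control stood at 0.457, 0.350 and 0.527 and double knockout at 2.22, 2.01 and 2.22. Ep300 knockout, at 0.681, 1.02 and 1.01 CPM, lay between them without overlapping either, and Crebbp knockout, at 0.366, 0.463 and 0.439 CPM, lay within the control range. The log2 fold change was 1.01 ± 0.22 in Ep300 knockout (2.02-fold, adjusted p = 0.004), -0.09 ± 0.24 in Crebbp knockout (adjusted p = 0.878) and 2.26 ± 0.21 in double knockout (4.78-fold, adjusted p = 3.71e-07). The step from Ep300 knockout to double knockout was 1.24 ± 0.19 (adjusted p = 0.000181). Only double knockout had a group mean above 1 CPM, so the comparison of Ep300 knockout with control is between low levels.

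Ccl5, also known as RANTES, attracts T cells, monocytes and eosinophils, and it was the member that moved in opposite directions. The gene (ENSMUSG00000035042) lies on chromosome 11, 83525778 to 83530518, minus strand. Control libraries stood at 6.58, 5.53 and 5.55 CPM, Crebbp knockout at 6.35, 6.69 and 6.42, Ep300 knockout at 3.35, 2.89 and 3.52, and double knockout at 11.5, 13.1 and 12.0. All 3 Ep300-knockout libraries were below every control library, and all 3 double-knockout libraries were above every other library. Ccl5 fell by 0.86 ± 0.10 on the log2 scale in Ep300 knockout (1.81-fold lower, adjusted p = 2.61e-05), was at 0.14 ± 0.10 in Crebbp knockout (adjusted p = 0.509), and rose by 1.05 ± 0.10 in double knockout (2.07-fold, adjusted p = 4.73e-07). Set against each single knockout, double knockout was higher by 1.91 ± 0.10 than Ep300 knockout (3.75-fold, adjusted p = 4.9e-09) and by 0.91 ± 0.10 than Crebbp knockout (1.88-fold, adjusted p = 2.64e-06). The direction of the change with Ep300 knockout thus differed with the state of Crebbp: -0.86 with Crebbp labelled intact and 0.91 with Crebbp labelled lost.

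The double-knockout change was then set against the sum of both single-knockout changes on the log2 scale, within the same fit. Each of the 4 members exceeded the sum, in a comparison where 10.3% of all tested genes passed, 5.33% in this direction and 4.96% in the other. For Cxcl10 the single changes summed to 1.35 against 2.54 in double knockout, a difference of 1.19 ± 0.08 (adjusted p = 7.37e-07). For Csf1 the sum was 1.23 against 2.21 (difference 0.98 ± 0.16, adjusted p = 0.00134), and for Cx3cl1 it was 0.92 against 2.26 (1.33 ± 0.30, adjusted p = 0.0121). Ccl5 had the largest difference of these 4 genes, with a sum of -0.72 against 1.05 (1.77 ± 0.14, adjusted p = 2.68e-06). The other tested members did not pass, Cxcl1 at 0.02 ± 0.71 (adjusted p = 0.989) and Cxcl16 at 0.33 ± 0.65 (adjusted p = 0.799). With errors this wide, neither a match with the sum nor a departure from it is resolved for Cxcl1 and Cxcl16. Each difference is a combination of the comparisons with control given above, uses all 12 libraries, and is not independent of them. The background count of 1897 genes for this test ran from 1119 to 2861 when 1 library was left out.

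**Figure D2:**
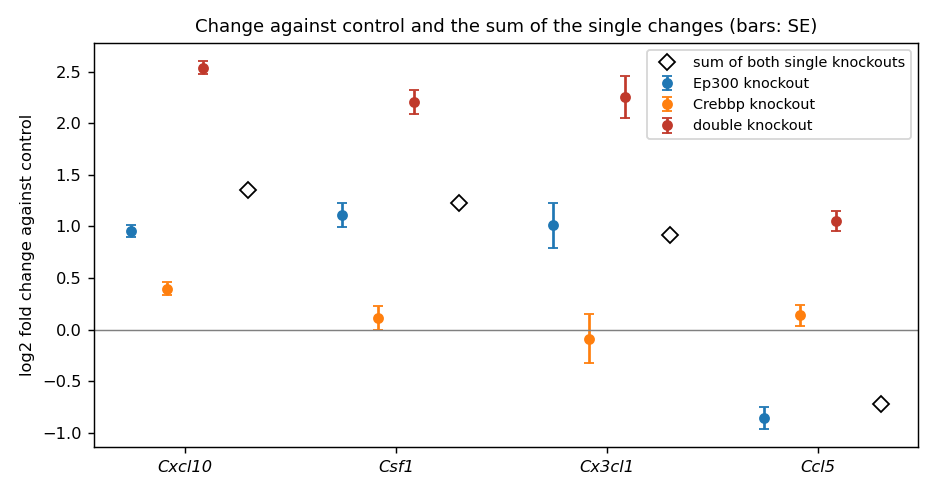
Log2 fold change against control (y axis) of Cxcl10, Csf1, Cx3cl1 and Ccl5 in Ep300, Crebbp and double knockout, with SE bars; open diamonds give the sum of both single-knockout changes. The double-knockout point lies above the diamond for each gene, by 0.98 to 1.77, and for Ccl5 the 2 lie on opposite sides of 0.

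Levels of different genes were compared as CPM per kilobase of exon. Cxcl10 ranked first in all 4 groups, at 8.08 ± 0.0932 (SD, n = 3) in control, 10.6 ± 0.257 with Crebbp labelled lost, 15.7 ± 0.657 with Ep300 labelled lost and 47.1 ± 1.98 in double knockout. Ccl5 came next and Csf1 after it in control (6.13 ± 0.624 and 1.65 ± 0.291), in Crebbp knockout (6.76 ± 0.185 and 1.80 ± 0.0709) and in double knockout (12.7 ± 0.819 and 7.67 ± 0.239), without overlap of the libraries in any of the 3 groups. In Ep300 knockout the libraries of Csf1, at 3.59 ± 0.496, and of Ccl5, at 3.39 ± 0.339, overlapped, so that their order there is not resolved. Cx3cl1 came after Csf1 in double knockout, at 0.547 ± 0.0314, above Cxcl1 in all 3 libraries. In control it stood below Cxcl1, at 0.113 ± 0.0227 against 0.293 ± 0.0361. The summed level of the 10 members ran from 32.0 to 35.5 CPM in control, from 39.7 to 41.4 with Crebbp labelled lost, from 55.7 to 62.4 with Ep300 labelled lost and from 154 to 166 in double knockout, and Cxcl10 made up 51.5% to 66.1% of these counts in a library.

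The other 6 members counted as near the floor because the filter removed them or they stayed under 1 CPM in every group. The count floor itself is taken as 3 counts and corresponds to 0.0321 to 0.0525 CPM in a library. Cxcl1 and Cxcl16 lay above that count floor in every library and are placed here by the 1 CPM rule alone. Cxcl1, a neutrophil attractant that signals through Cxcr2 and a classic NF-kappaB target, had 46, 27 and 44 counts in control, 46, 25 and 20 in Ep300 knockout, 8, 33 and 21 in Crebbp knockout, and 15, 14 and 30 in double knockout. Control and double knockout did not overlap in CPM (0.472 to 0.594 against 0.163 to 0.321). Its log2 fold change in double knockout was -1.34 ± 0.47 (adjusted p = 0.0291), and the values for the single knockouts were -0.50 ± 0.45 with Ep300 labelled lost (adjusted p = 0.54) and -0.86 ± 0.47 with Crebbp labelled lost (adjusted p = 0.368). Cxcl16, a membrane-bound ligand of Cxcr6, had 29, 10 and 17 counts in control, 17, 15 and 14 in Ep300 knockout, 4, 11 and 10 in Crebbp knockout, and 10, 7 and 14 in double knockout. Its values were -1.18 ± 0.45 in double knockout (adjusted p = 0.0399), -0.43 ± 0.43 with Ep300 labelled lost (adjusted p = 0.593) and -1.09 ± 0.46 with Crebbp labelled lost (adjusted p = 0.234). Exons of Zmynd15 on the opposite strand share 552 bases with Cxcl16, or 18.3% of its exon length, and Zmynd15 held 0 to 17 counts per library.

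Both of these double-knockout values lie close to the threshold and lose it when 1 library is left out. For Cxcl1 the adjusted p became 0.0649 without control replicate 1, 0.0702 without control replicate 3, 0.0981 without double-knockout replicate 1 and 0.0954 without double-knockout replicate 2. For Cxcl16 it became 0.204, 0.0556, 0.097 and 0.132 without the same libraries, and 0.0767 with no filter on low counts. With the replicate number as a block it was 0.0512 for Cxcl1 and 0.0625 for Cxcl16. With no filter Cxcl1 was at -1.33 ± 0.37 (adjusted p = 0.00185). The sign stayed negative in all 19 refits that gave a value. The range was -1.74 to -1.17 for Cxcl1, which passed in 14, and -1.43 to -0.83 for Cxcl16, which passed in 13. Since the threshold was not kept at this depth, the fall of Cxcl1 and Cxcl16 is given as values and not as a call.

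**Figure D3:**
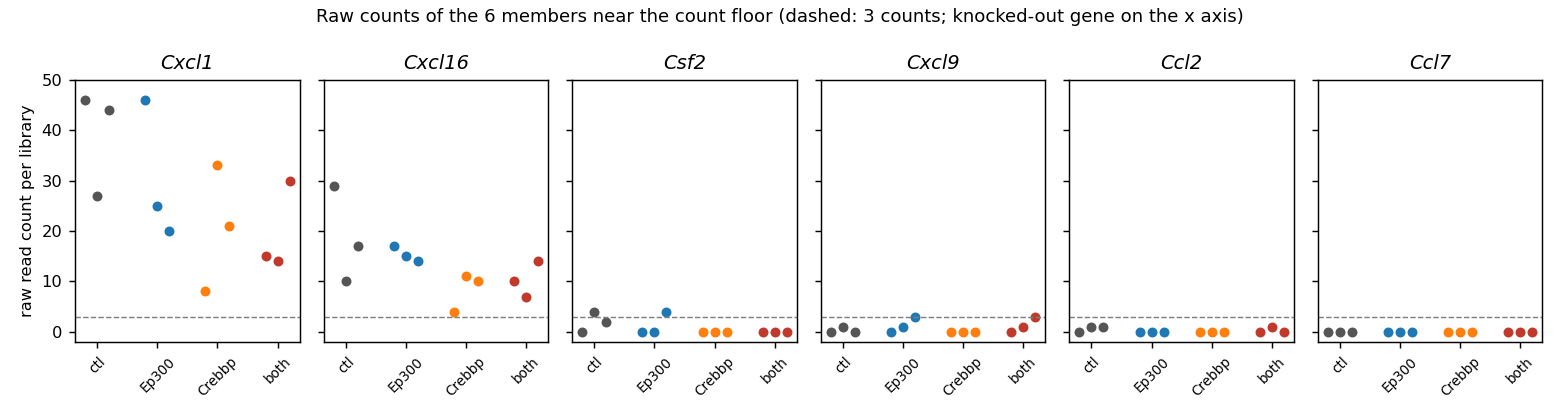
Raw read counts (y axis) per library of Cxcl1, Cxcl16, Csf2, Cxcl9, Ccl2 and Ccl7, grouped on the x axis by the gene or genes labelled as knocked out; the dashed line marks 3 counts. Cxcl1 and Cxcl16 hold 4 to 46 counts, and the other 4 genes hold 0 to 4.

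Csf2, which encodes the granulocyte-macrophage factor GM-CSF, had 0, 4 and 2 counts in control, 0, 0 and 4 in Ep300 knockout, and 0 in each Crebbp-knockout and double-knockout library. Cxcl9, the other interferon-inducible Cxcr3 ligand of the group and a neighbour of Cxcl10 on chromosome 5 (92321347 to 92328079, minus strand), had 0, 1 and 0 counts in control, 0, 1 and 3 in Ep300 knockout, 0 in Crebbp knockout, and 0, 1 and 3 in double knockout. Summed over the double-knockout libraries, 4 counts of Cxcl9 give 0.0148 CPM (exact 95% Poisson interval 0.00403 to 0.0379), where Cxcl10 reached 106 CPM. Ccl2, a monocyte attractant that acts through Ccr2, had 1 count in each of 3 libraries and 0 in the other 9. Ccl7, its neighbour on chromosome 11 and also a Ccr2 ligand, had 0 counts in all 12 libraries. The exact 95% Poisson interval of its group sum reaches 0.0176 CPM in control and 0.0137 CPM in double knockout. Intervals and floors cover counting error only. No fold is given for these 4 genes, and differences between groups were not detectable for them at this depth.

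Related ligands were read from a list of 31 other chemokine, colony-stimulating factor and Csf1r-ligand genes. Of these, 12 had 0 counts in all libraries and 4 passed the filter: Ccl25, Ccl27a, Ccl28 and Ccl4. None of the 4 passed the test in Ep300 or Crebbp knockout by edgeR, where 1 had an unadjusted p under 0.05 in Ep300 knockout (Ccl4) and 0 in Crebbp knockout. In double knockout 1 was higher and 1 lower, where 24.7% and 24.6% of all genes were (median log2 fold change 0.24, beside -0.02 over all genes). The higher one, Ccl4, a CC chemokine that attracts monocytes, is near the floor, since it stayed under 1 CPM in every group. It had 0 to 4 counts per control library and 91, 45 and 35 in double knockout (0.632 ± 0.320 CPM, SD). The log2 fold change there was 4.37 ± 0.78 (adjusted p = 0.000275). Ccl4 passed the filter through double knockout, the group where it was high, and was removed when only Ep300 knockout and control were filtered. These values, the count of 1 higher, which is Ccl4 alone, and the median that it enters are therefore given without a call. In Ep300 knockout the value was 2.51 ± 0.88 (adjusted p = 0.0713, and from 0.00146 to 0.211 over the alternatives). It was under the threshold without control replicate 2 (0.0462) or Crebbp-knockout replicate 3 (0.0294). Ccl25, a ligand of Ccr9, fell by 0.32 ± 0.11 in double knockout (adjusted p = 0.0251), from 12.9 to 10.3 CPM, and missed the threshold without control replicate 1 (0.0875) or 3 (0.0523) and without double-knockout replicate 1 (0.118) or 2 (0.0899). Ccl27a, which has near-identical copies in the mouse genome, stood at group means of 3.65 to 5.11 CPM and did not pass against control (adjusted p from 0.347 to 0.992). It passed between double and Crebbp knockout (0.49 ± 0.17, adjusted p = 0.027), but in none of the refits without a library of double knockout (0.0568 to 0.0631) nor without Crebbp-knockout replicate 1 (0.0917) or 2 (0.118), nor with offsets for exon length and GC content (0.166).

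Of 28 receptor genes, 9 passed the filter. The cognate receptors given here were low: Ccr2 had at most 1 count in a library, Cxcr2 and Csf2rb at most 6, Csf1r at most 10, Cxcr3 and Cx3cr1 at most 15 and Cxcr6 at most 33. Csf2ra, the alpha chain of the GM-CSF receptor, was the exception at group means of 1.26 to 2.58 CPM, and it was higher in double knockout by 0.90 ± 0.32 (adjusted p = 0.028). This call was lost without control replicate 1 (0.0784) or 2 (0.105), without double-knockout replicate 1 (0.0538) or 2 (0.0835), and with offsets for exon length and GC content (0.0568). In double knockout 2 receptors were higher and 1 lower, where 24.7% of all genes were higher and 24.6% lower, and in Ep300 knockout 0 were higher and 1 lower (7.27% and 8.83% of all genes). Ackr3, an atypical receptor that scavenges Cxcl12, fell from 5.67 ± 1.09 CPM in control to 0.749 ± 0.115 with Ep300 labelled lost (-2.91 ± 0.18, adjusted p = 9.94e-09) and 0.265 ± 0.0526 with both labelled lost (-4.42 ± 0.20, adjusted p = 1.03e-10), and it was the only receptor called in Ep300 knockout. Ccrl2, an atypical receptor that binds chemerin, rose from 0.260 to 1.35 CPM in double knockout (2.38 ± 0.33, adjusted p = 2.55e-05). By edgeR, 0 of the 9 receptors passed in Crebbp knockout.

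**Figure D4:**
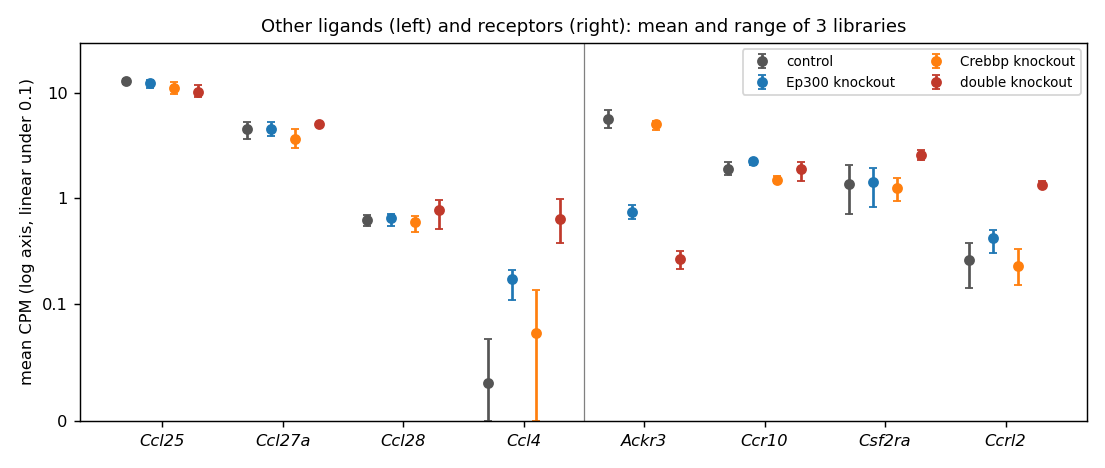
Mean CPM (y axis, log scale above 0.1 and linear under it) of the 4 other ligands and of 4 receptors in each group; bars span the lowest and highest of 3 libraries. Ccl4 and Ccrl2 are highest in double knockout, Ackr3 is lower in both groups labelled Ep300 knockout, and the ranges of Ccl27a and Ccl28 overlap between control and double knockout.

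Of 10 genes for shedding and trimming of these ligands, 8 passed the filter. In Ep300 knockout 2 were higher and 2 lower (7.27% and 8.83% of all genes), in Crebbp knockout 1 was higher (1.52%) and 0 lower (1.61%), and in double knockout 5 were higher and 1 lower (24.7% and 24.6%), with medians of 0.11, 0.07 and 0.24. Adam10 and Adam17, the proteases that release Cx3cl1 and Cxcl16 from the membrane, were higher in double knockout by 0.20 ± 0.06 (adjusted p = 0.0158) and 0.27 ± 0.06 (adjusted p = 0.00274); the call of Adam10 was lost without control replicate 3 (0.0516) or double-knockout replicate 2 (0.0785), and with no filter (0.0521). The metalloprotease inhibitor gene Timp1 rose by 2.19 ± 0.08 with Ep300 labelled lost, 0.76 ± 0.08 with Crebbp labelled lost and 3.69 ± 0.08 with both labelled lost (adjusted p from 2.9e-14 to 9.64e-05), and the proprotein convertase gene Furin rose by 0.66 ± 0.11 with Ep300 labelled lost (adjusted p = 0.000477) and by 0.98 ± 0.11 with both labelled lost (adjusted p = 2.86e-06).

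Of 26 genes for the NF-kappaB, interferon and AP-1 factors that act on chemokine promoters, 25 passed the filter. Higher were 13 in Ep300 knockout (7.27% of all genes), 3 in Crebbp knockout (1.52%) and 20 in double knockout (24.7%), and 0 were lower in each (8.83%, 1.61% and 24.6% of all genes), with medians of 0.42, 0.09 and 1.00. Stat3 rose by 0.68 ± 0.10 with Ep300 labelled lost (adjusted p = 0.00014) and 1.34 ± 0.10 with both labelled lost (adjusted p = 3.12e-08). Jun, an AP-1 subunit, rose by 0.42 ± 0.08 and 1.52 ± 0.08 in the same groups (adjusted p = 0.00144 and 5.5e-10). Chuk, which encodes the kinase IKK-alpha, rose by 0.21 ± 0.07 and 0.63 ± 0.07 (adjusted p = 0.0447 and 1.6e-06). The Chuk value in Ep300 knockout missed the threshold in 12 of 20 alternatives (adjusted p up to 0.149), 9 of them with 1 library left out, and the count of 3 in Crebbp knockout ran from 1 to 5. It was 1 without control replicate 2 or 3, without Crebbp-knockout replicate 1 or 2 and without any double-knockout library, and 5 without Ep300-knockout replicate 3. The part of these genes in the chemokine values was not tested.

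For each member that passed the filter, the tested protein-coding genes of at least 5 CPM were ranked by the root mean square difference in centred log2 CPM over the 12 libraries, as a description with no test. Csf1 was closest to Tgfb1, which encodes TGF-beta 1, at 0.0798 on the log2 scale, followed by Tlr3, a receptor for double-stranded RNA, at 0.121 and Ltbp4, which binds latent TGF-beta, at 0.122. Cx3cl1 was closest to Tgfb1 at 0.158 and to Csf1 at 0.160. Cxcl10 was closest to the class I heavy chain H2-K1, which shares sequence with other class I genes, at 0.139, then to Tlr3 at 0.146 and to Errfi1, an inhibitor of EGF receptor signalling, at 0.159. Ccl5 had more distant neighbours, with Dusp2, a phosphatase of MAP kinases, at 0.267, the oncostatin M receptor gene Osmr at 0.317 and Mest at 0.319. Like Ccl5, Dusp2 was lower in Ep300 knockout (-0.75 ± 0.09) and higher in double knockout (0.71 ± 0.09). In Crebbp knockout the 2 genes differed in sign, with Dusp2 at -0.35 ± 0.09 and Ccl5 at 0.14 ± 0.10. For Cxcl1 and Cxcl16, whose low counts add noise of their own, the closest genes were at 0.541 (1600002K03Rik) and 0.402 (Apold1).

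Since leukocytes are a common source of these signals, a list of 12 immune markers, of which Csf1r also stands among the receptors, was read in the same libraries. Ptprc, which encodes the pan-leukocyte protein CD45, had 2 counts over all 12 libraries together, Cd3e and Itgam had 1 each, and Adgre1 and Itgax had 0. Only Cd68 and Lyz2 passed the filter, and they moved apart in double knockout: Cd68 by 1.73 ± 0.13 (adjusted p = 5.48e-08) and Lyz2 by -1.59 ± 0.30 (adjusted p = 0.000419). The summed level of the 12 markers ran from 3.33 to 4.36 CPM in control, 4.26 to 5.22 in Ep300 knockout, 2.25 to 3.16 in Crebbp knockout and 6.13 to 7.28 in double knockout. Summed fibroblast markers ran from 10.4 to 12.8 CPM in control and from 18.4 to 24.4 with Ep300 labelled lost. They reached 16.9 with Crebbp labelled lost and 16.4 in double knockout. Of these 8 markers, 4 passed the filter. In Ep300 knockout 1 was higher and 1 lower, where 7.27% and 8.83% of all genes were (Col1a1 by 2.40 ± 0.17, adjusted p = 6.09e-08, and Col1a2 by -2.30 ± 0.20, adjusted p = 6.97e-07). In double knockout 2 were higher and 2 lower, where 24.7% and 24.6% of all genes were. Endothelial and epithelial markers summed to at most 0.577 CPM. The 8 melanocyte markers summed to 20000 to 22000 CPM in control and 18800 to 19600 in Crebbp knockout. They summed to 14600 to 15300 in Ep300 knockout and 6680 to 6850 in double knockout. Lower were 7 in Ep300 knockout (8.83% of all genes), 1 in Crebbp knockout (1.61%) and all 8 in double knockout (24.6%). Over the alternatives the count ran from 5 to 8 in Ep300 knockout and from 0 to 3 in Crebbp knockout. The part of the changes in marker levels in the chemokine values was not tested.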

How the data were processed

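The authors deposited raw read counts per Ensembl gene, 1 column per library, made with bcl2fastq, HISAT2 and HTSeq on build mm10, per the submitters' processing notes. Their versions, strand handling and gene models are not stated in the labels. Symbols, positions and exon lengths came from GENCODE M21 (GRCm38), which matched 54723 of 54752 genes, and promoter windows from RefSeq (GRCm38.p6).

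Genes with low counts were removed with filterByExpr, counts were scaled by TMM, and all 12 libraries were fitted together with the group as the only term by edgeR's quasi-likelihood test in its robust form (R 4.3.3, edgeR 4.0.16, limma 3.58.1, DESeq2 1.42.0). P-values were adjusted by Benjamini-Hochberg over all tested genes within each of 7 contrasts, with a threshold of 0.05. Errors of log2 fold changes are standard errors from the F statistic. The scripts were tested on simulated data. The biological coefficient of variation was 9.46%.

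The 10 genes and the lists (other ligands, receptors, shedding and trimming, transcriptional inputs, cell type markers) were chosen with earlier results of these data known. From each of the first 4 lists, the genes called against control were named, at most the 4 most abundant, and cognate receptors by level; some genes of these lists are not reported here. A gene removed by the filter, or under 1 CPM in every group, counted as near the floor. For each member the 3 most alike genes were ranked. The values of the members, and, added after seeing the data, those of the listed genes named, were recomputed with limma-voom or DESeq2, with size factors by RLE, with no filter or one of 1 CPM in 3 libraries, from the compared groups alone, with a replicate block, with offsets for GC content and exon length, and without each library.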

Additional observations from a re-analysis of the deposited data

Results flagged for a closer look

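In 4 of the 6 tested members the change with either knockout label differed with the labelled state of the other gene. This was tested as the log2 change in double knockout minus the summed changes of the single knockouts (edgeR adjusted p below). In this comparison 10.3% of all tested genes passed, 5.33% in this direction and 4.96% in the other. The difference was 1.77 for Ccl5 (adjusted p = 2.68e-06), 1.33 for Cx3cl1 (adjusted p = 0.0121), 1.19 for Cxcl10 (adjusted p = 7.37e-07) and 0.98 for Csf1 (adjusted p = 0.00134). For Ccl5, Crebbp knockout went with 0.14 ± 0.10 against control and with 1.91 ± 0.10 in the libraries labelled Ep300 knockout, and all 3 double-knockout libraries were above every other library. Groups of 3 libraries are too small for a test of single outlying libraries.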

How the results depend on the processing

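Over 34 member values and up to 20 alternatives, 655 of 669 recomputed values kept direction and side of the threshold; DESeq2 gave no adjusted p for Cxcl16 in Crebbp knockout, which is not counted. Cxcl10, Ccl5, Csf1 and Cx3cl1 kept their sign and call in 496 of 496 refits of the 25 called values. These 4 were taken because they reached 1 CPM in some group, Cx3cl1 only in double knockout. The count of 496 therefore leaves out Cxcl1 and Cxcl16, whose values fell there. Both counts include refits that left out a library of a group outside the comparison. Such a refit could change the value only through the filter, the scaling and the shared estimate of spread. The 11 that lost the threshold were Cxcl1 (5) and Cxcl16 (6) in double knockout against control, given above; a filter of 1 CPM in 3 libraries gave neither a value. The 3 reversals were uncalled values of Crebbp knockout against control: Cx3cl1 at 0.043 without control replicate 3 and 0.005 without Crebbp-knockout replicate 1 (range -0.22 to 0.043), and Csf1 at -0.018 without control replicate 2 (range -0.018 to 0.21).

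Of 37 values of other named genes, recomputed in the same way after seeing the data, 28 kept direction and side throughout and 696 of 737 refits did. The 30 lost and 4 gained calls were those of Ccl25, Ccl27a, Csf2ra, Adam10, Chuk and Ccl4 named above. The 7 reversals were uncalled: Ccl27a in Ep300 knockout (-0.084 with offsets, and -0.133 and -0.119 without control or Ep300-knockout replicate 1; range -0.133 to 0.132 with 1 library left out) and in double knockout (-0.007 with offsets), and Crebbp in double knockout (0.039, 0.016 and 0.062 without control replicates 1 and 3 and double-knockout replicate 3; range -0.103 to 0.062).

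Over all genes, the count called in Crebbp knockout against control was 577, and it was 1279 with DESeq2, 1270 with no filter, 1131 with offsets for exon length and GC content, 321 with the replicate block, 257 from the compared groups alone, and 214 to 774 with 1 library left out (365 and 246 without control replicates 1 and 3, 299 and 214 without Crebbp-knockout replicates 1 and 2). The count for double knockout against the sum of both single knockouts was 1897 and ran from 1119 to 2861 with 1 library left out (1197, 2861 and 1128 without control replicates 1, 2 and 3, 1119 without double-knockout replicate 2, 1143 without Ep300-knockout replicate 2). The cause was not tested. Only the groups compared could not give the latter, which needs all 4 groups.

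Replicate numbers showed no clear pairing of the libraries. Deviations of the 18 same-numbered pairs from their group means correlated at -0.17 to 0.107, and 1 of 12 libraries was closest to its own number. Each group mean rests on only 3 libraries, so this is a description, and a batch shared by replicate number was not tested. With the number as a block, 1345 genes passed against the sum of both single knockouts. Depth limits Csf2, Cxcl9, Ccl2 and Ccl7 to 0 to 4 counts per library.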
